A study of Mus musculus with 2 samples.

Results

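The ribosomal protein genes were followed in macrophages sorted from the small intestine of wild-type and CCR2-/- mice. Members were all listed genes whose symbol starts with Rpl, Rps or Rplp and a digit, apart from symbols with -ps, that had at least 20 unique molecular identifiers (UMIs, 1 for each captured transcript molecule) in each library. Of the 27998 listed genes 96 matched the symbols and 91 met the minimum. Of these 91, 82 are ribosomal protein genes and are the subject below, counted with Rpl6l, which GENCODE lists as a processed pseudogene. The other 9 encode other proteins, namely S6 kinases and a binding protein of Rps19. The 5 genes under the minimum were Rpl39l with 30 wild-type and 8 CCR2-/- UMIs, Rpl3l with 8 and 0, Rps6ka6 with 1 and 0, and Rpl10l and Rps6kl1 with 0 in both. The ribosomal protein gene with the fewest UMIs inside the minimum was Rpl7l1, with 1135 and 338.

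Both libraries came from live CD45+ cells that were negative for CD3, TCRb, B220, SiglecF, Ly6C and Ly6G and positive for CD11b, MHCII and CD64, and both were made with the single cell 3′ v2 chemistry of 10x Genomics. The wild-type library was from male C57BL/6J animals bought from Janvier, and the other was from CCR2-/- animals (JAX strain #:004999) bred in-house, whose sex the labels do not give. Ages are not given for either group. Each library pooled 3 to 4 intestines and stands for 1 sample of its genotype, so there is no replicate, no test between genotypes was possible, and genotype cannot be told apart from animal source, sort or library. The wild-type sample was split over 2 lanes, which are runs of 1 sample and serve only as a technical yardstick. All intervals are at the 95% level and cover counting error only.

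Ribosomal proteins assemble with ribosomal RNA into a small subunit, which reads the messenger RNA, and a large subunit, which joins amino acids, and a flexible stalk on the large subunit binds the translation factors. Their messenger RNAs are among the most abundant of most cells and typically start with a run of pyrimidines, the terminal oligopyrimidine (TOP) start, through which the mTOR pathway and the protein Larp1 control their translation and stability together. Mammalian genomes also carry many processed copies of these genes, so that reads can be hard to place. CCR2 is the chemokine receptor with which monocytes leave the bone marrow and enter tissue, where in the intestine they replenish many of the macrophages.

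The start windows of a few members are shown because the shared start is the feature by which these transcripts are known as a class. They were read from the RefSeq table for GRCm38.p6 and run from 10 bases before to 20 bases from the annotated start, 5′ to 3′ on the transcribed strand. Capitals mark the pyrimidine run. Rpl28 and Rps2 were among the members with the lowest ratio of CCR2-/- to wild type, Rps6 and Rpl15 were near the middle, and Rps26, Rpl22l1 and Rps27rt stood apart from the rest. The windows lie at chr7:4792955-4792984 on the plus strand (Rpl28), chr17:24720053-24720082 on the plus strand (Rps2), chr4:86857348-86857377 on the minus strand (Rps6) and chr14:18270967-18270996 on the minus strand (Rpl15). Those of the members that stood apart lie at chr10:128626487-128626516 on the minus strand (Rps26), chr3:28805498-28805527 on the plus strand (Rpl22l1) and chr9:114982720-114982749 on the minus strand (Rps27rt), and that of Rps27 lies at chr3:90213629-90213658 on the minus strand.
Rpl28: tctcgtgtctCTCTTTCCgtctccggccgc
Rps2: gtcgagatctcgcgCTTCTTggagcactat
Rps6: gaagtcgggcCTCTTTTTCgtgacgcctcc
Rpl15: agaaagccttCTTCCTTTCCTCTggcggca
Rps26: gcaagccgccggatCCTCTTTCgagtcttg
Rpl22l1: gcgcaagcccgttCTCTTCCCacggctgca
Rps27: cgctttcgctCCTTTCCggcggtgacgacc
Rps27rt: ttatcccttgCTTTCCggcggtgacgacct

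Of the 82 members 61 were matched in the start table. A run was counted where a C was followed by at least 4 bases that were each C or T, on the transcribed strand only. It began exactly at the annotated start in 14 of the 61 (23.0%), against 3.01% of the 27025 genes of the whole table, and within 10 bases of the start in 36 (59.0%) against 32.6%. The median log2 ratio of CCR2-/- to wild type was -0.73 in the 14 members with a run at the start and -0.82 in the other 47. Members with and without a run at this place thus overlapped over nearly their whole range, and only the upper end differed, at 1.36 for Rps27rt with a run and 0.22 for Rps28 without one.

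The wild-type library kept 3016 of 3054 cells and 20678108 UMIs, and the CCR2-/- library kept 2612 of 2774 cells and 7265386 UMIs, after removal of cells with fewer than 200 genes or more than 10% mitochondrial UMIs. The median cell held 6129 UMIs in wild type and 2439 in CCR2-/-. Lane 1 and lane 2 shared 5 barcode sequences, and the wild-type and CCR2-/- libraries shared 6. Ccr2 was at 347 CPM in lane 1 (UMIs scaled to a library total of 1000000), 293 in lane 2 and 6.88 in CCR2-/- (50 UMIs), the direction its label calls for, although the labels do not say which part of the gene is missing. All 10 macrophage markers were detected in both libraries, with a summed level of 1.52% of UMIs in lane 1, 1.81% in lane 2 and 1.39% in CCR2-/-. Single markers went both ways, with log2 ratios of CCR2-/- to wild type from -1.33 to 1.46. At or below -0.5 there were 4 and at or above 0.5 there were 4, against 14.2% and 32.1% of 10239 genes.

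Ribosomal protein genes took 20.02% of all UMIs in lane 1, 20.35% in lane 2 and 12.53% in CCR2-/- (12.50% to 12.55%). The lanes lay 0.02 apart on the log2 scale, and CCR2-/- lay 0.68 below wild type on that scale. Per cell, the median share was 18.9% in wild type, with a 25th to 75th percentile of 15.003% to 23.2%, and 11.01% in CCR2-/-, with 8.29% to 14.5%. Over cells of all depths the 25th percentile of wild-type cells was thus above the 75th percentile of CCR2-/- cells. At matched depth this held only narrowly at 1000 to 2000 UMIs (13.4% against 13.1%). It did not hold at 2000 to 4000 (14.3% against 14.6%) or at 4000 to 8000 UMIs (14.4% against 16.2%). Nor did it hold for wild-type cells of all depths without a Ccr2 UMI, whose 25th percentile was 13.4%. Size factors from the median of ratios over all genes, which set the median gene to a ratio of 0 in place of 0.22, gave a log2 ratio of -0.90 for the summed share.

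Gene by gene, 79 of the 82 members were lower in CCR2-/- than in wild type and 70 had a log2 ratio of CPM at or below -0.5, against 14.2% of the 10239 genes with the minimum. At or above 0.5 there was 1 member, against 32.1% of all genes. The median log2 ratio of the members was -0.80, their 25th and 75th percentiles were -1.004 and -0.66, and the median of all genes was 0.22. Against lane 1 alone 69 members were at or below -0.5 and against lane 2 alone 70 were. Between the lanes themselves 0 of 82 members were at or below -0.5 and 0 at or above 0.5, where 12.3% and 1.97% of 9317 genes were. Lane ratios of the members ran from -0.11 to 0.39 with an SD of 0.09, so no member differed between lanes by as much as the median member differed between libraries.

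**Figure D1:**
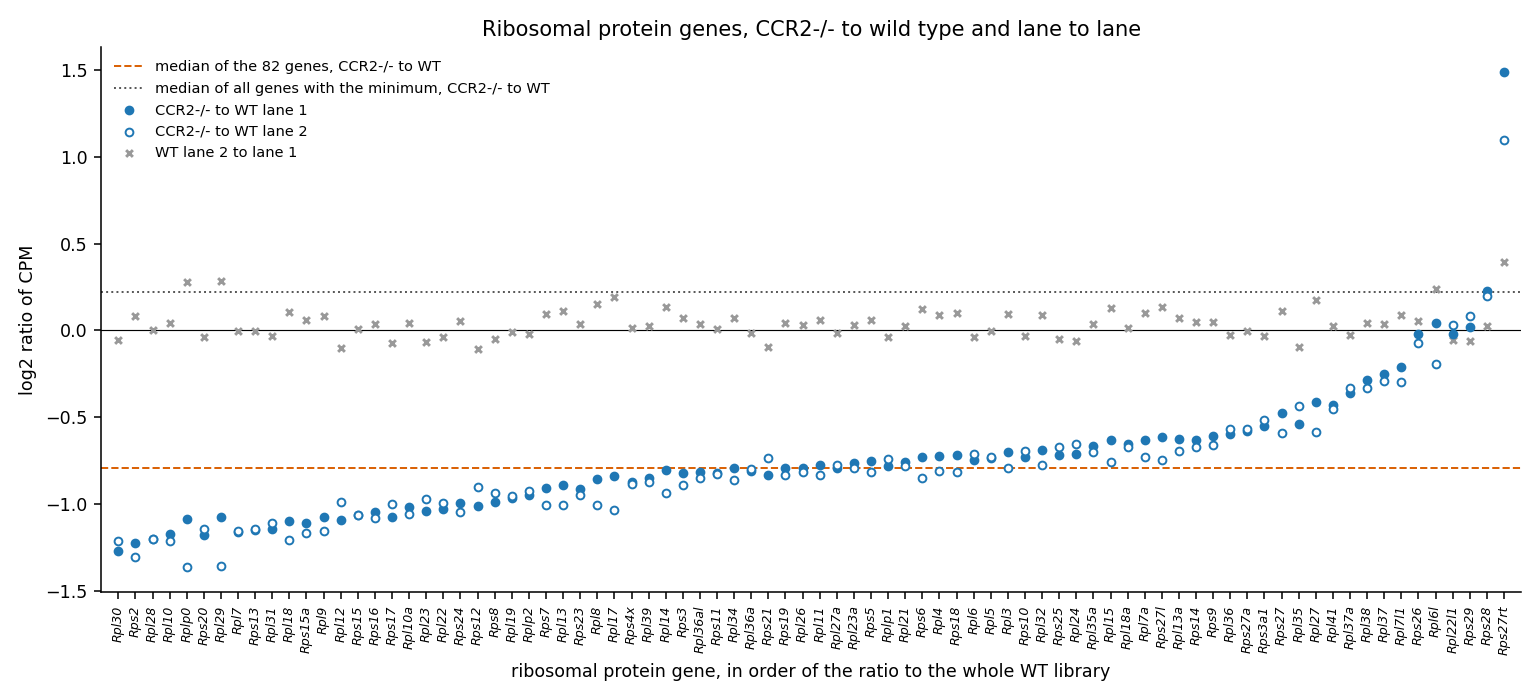
Log2 ratio of CPM for each of the 82 ribosomal protein genes, in order of the ratio of CCR2-/- to the whole wild-type library. Filled and open circles compare CCR2-/- with each wild-type lane, crosses compare the lanes, the dashed line is the members' median of -0.80 and the dotted line the median of 0.22 of all genes. Most genes lie between -1.25 and -0.5 against both lanes while the lane-to-lane crosses stay between -0.11 and 0.39, and Rps27rt alone lies above 1.

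In the large subunit without the stalk all 47 members were lower in CCR2-/- and 39 were at or below -0.5, with a median of -0.79. Rpl30 had the lowest ratio of all members, with 1876 CPM in lane 1, 1803 in lane 2 and 778 in CCR2-/- (758 to 799), a log2 ratio of -1.25. Rpl10, which joins the large subunit late in its assembly, was at 3580 and 3679 CPM in the lanes and 1585 in CCR2-/- (-1.19). Rpl28 was at 1722 and 1723 CPM in the lanes and 748 in CCR2-/- (-1.20). For these 3 genes the lanes differed by far less than either differed from CCR2-/-. Rpl29 was at 884, 1075 and 420 CPM (-1.16), Rpl7 at 1707, 1699 and 762 (-1.16) and Rpl31 at 1793, 1756 and 812 (-1.13), in the order lane 1, lane 2 and CCR2-/-. Rpl5 and Rpl11, which with 5S ribosomal RNA also bind the p53 regulator Mdm2, had log2 ratios of -0.73 and -0.79, next to the members' median.

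The small subunit had a median of -0.81 over 32 members, of which 29 were lower and 28 were at or below -0.5. Rps2 was at 1594 CPM in lane 1, 1691 in lane 2 and 682 in CCR2-/- (663 to 702), a log2 ratio of -1.25. Rps20 was at 2882, 2811 and 1271 CPM (-1.17) and Rps13 at 2524, 2515 and 1138 (-1.15), in the same order. Rps6, the substrate after which the S6 kinases are named, was at 1812 and 1972 CPM in the lanes and 1093 in CCR2-/- (-0.77). Rps27a, which is made as a fusion with ubiquitin, was at 3489, 3473 and 2337 CPM (-0.58). The 3 stalk genes were also lower. Rplp0, the base of the stalk, was at 2016 and 2447 CPM in the lanes and 950 in CCR2-/- (-1.17), Rplp1 at 5482, 5336 and 3185 (-0.77), and Rplp2 at 4157, 4093 and 2156 (-0.94). Summed over each class, the share of UMIs had a log2 ratio of -0.73 for the large subunit, -0.61 for the small subunit and -0.90 for the stalk.

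The size of these single ratios depended on the depth of the cells compared. Among cells of 2000 to 4000 UMIs in both libraries the ratio of Rplp0 was -0.21 in place of -1.17, that of Rpl29 -0.35 in place of -1.16, and that of Rps2 -0.69 in place of -1.25. Others kept their size there, with Rpl30 at -1.34, Rps20 at -1.15 and Rpl7 at -1.04. Over all members the median in these cells was -0.64 and 52 of 82 were at or below -0.5. The median of all genes there was 0.016. When wild-type cells with a Ccr2 UMI were left out, the members' median was -0.54 and 47 members were at or below -0.5. The median of all genes was then 0.17. The share of all genes at or below -0.5 is not given for these settings.

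Level bore little relation to the ratio, with a rank correlation of 0.02 between wild-type CPM and the log2 ratio of CCR2-/- to wild type over the 82 members, which share libraries and are not independent. UMI counts of 3′ chemistry count transcript ends, so levels were compared between genes without a correction for length. Rps29, the most abundant member in both libraries, was at 9776 CPM in lane 1, 9356 in lane 2 and 9895 in CCR2-/- (9823 to 9967), a log2 ratio of 0.04 that became -0.18 with size factors and -0.28 among cells of 2000 to 4000 UMIs. Rpl41, the shortest member, was at 6444, 6546 and 4778 CPM (-0.44), and Rpl37a at 6382, 6252 and 4975 (-0.35). Rplp1 and Rps27 completed the highest 5 in wild type. Of these 5 all but Rplp1 had a ratio above the members' median of -0.80 by more than 0.2, whereas Rplp2, next in level, was below it (-0.94).

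Over cells of all depths, a distance of 0.5 or more from the members' median was found for 8 members, all of them on the higher side. The farthest was Rps27rt, a single-exon copy of Rps27 on chromosome 9 (GRCm38, 114982366 to 114982739, minus strand), at 823 CPM in lane 1, 1082 in lane 2 and 2309 in CCR2-/- (2274 to 2344), a log2 ratio of 1.36. Both lanes were far below CCR2-/-, and the lanes also differed from each other more here (0.39) than at any other member. Rps28 was at 3446, 3507 and 4023 CPM, a ratio of 0.22 that came to -0.11 among cells of 2000 to 4000 UMIs and to about 0 with size factors. Rps26, which lies at the exit of the messenger RNA channel, was at 1105, 1146 and 1087 CPM (-0.04). Rpl6l, which GENCODE lists as a processed pseudogene, was at 416, 491 and 429 (-0.03). The others were Rpl22l1 (-0.01), Rps29 (0.04), Rpl7l1 (-0.24) and Rpl37 (-0.26). Rpl38 lay just inside, at -0.30. Among cells of 2000 to 4000 UMIs more members than these 8 were that far from their median there, and Rpl30 was among them on the lower side.

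Among the 6 paralogues with their own symbol that met the minimum, the median log2 ratio was -0.13, and 2 were at or below -0.5. Rpl22l1 was at 498 and 479 CPM in the lanes and 490 in CCR2-/-, whereas Rpl22 itself was at 1232, 1201 and 603 (-1.02). Rpl7l1 was at 53.9, 57.3 and 46.5 CPM (-0.24) beside a ratio of -1.16 for Rpl7. Rps27l, a paralogue of Rps27 known as a target of p53, was at 438, 481 and 286 CPM (-0.65) beside -0.51 for Rps27. Rpl36al was at 808, 827 and 458 CPM (-0.83). Rps27rt and Rpl6l, given above at 1.36 and -0.03, are the remaining paralogues, so the 6 ranged from -0.83 to 1.36.

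Near copies of the members behaved differently from the members. A near copy was a gene whose annotated transcript matched at least 80% of a member's coding part at 90% identity or more, and 44 such genes were listed in the files, of which 41 met the minimum. They belonged to 27 genes, 25 of them members. GENCODE lists 29 of the 41 as processed pseudogenes, 11 as protein coding and 1 as a transcribed processed pseudogene. The copies had a median log2 ratio of CCR2-/- to wild type of 0.95, beside 0.22 for all genes. At or above 0.5 there were 28 copies and at or below -0.5 there were 0, against 32.1% and 14.2% of 10239 genes. The 25 members with a listed copy had a median of -0.77, with 22 at or below -0.5. Members without a listed copy had a median of -0.81 over 56 genes.

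In each of the 41 pairs the copy took a larger part of the UMIs of member and copy in CCR2-/- than in either lane. Of 100 UMIs of Rps27 and Rps27rt, 15.9 were on the copy in lane 1, 18.7 in lane 2 and 42.5 in CCR2-/-. The other pairs named here were chosen after their values were seen. For Rps18 and Rps18-ps3 the values were 12.3, 14.1 and 35.2, for Rpl13 and Rpl13-ps3 8.48, 9.29 and 31.8, and for Rps28 and Gm10263 7.28, 8.43 and 29.0. Within a library these parts changed far less with depth than between libraries. Rps27rt took 15.99 of 100 in wild-type cells of 1000 to 2000 UMIs, 16.2 at 2000 to 4000, 16.6 at 4000 to 8000 and 17.1 at 8000 to 16000. In CCR2-/- cells it took 41.5, 42.2 and 43.01 in the first 3 of these bins. The median over all copies went from 6.85 to 6.47 of 100 across the 4 bins in wild type and from 17.9 to 22.2 across the first 3 in CCR2-/-. All 41 copies had the larger part in CCR2-/- in each of those 3 bins. The lanes also differed slightly, with the larger part in lane 2 for 32 of the 41.

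**Figure D2:**
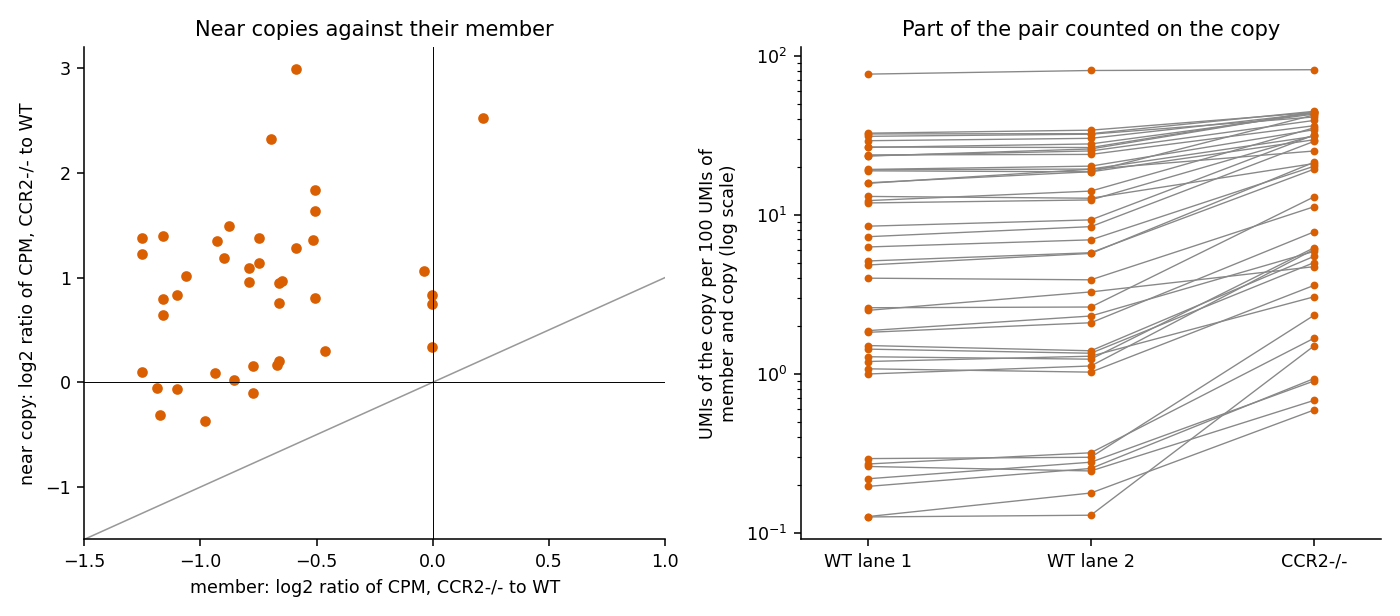
Left, log2 ratio of CPM of CCR2-/- to wild type for 41 near copies against the ratio of their member, with the line of equality. Right, UMIs of the copy per 100 UMIs of member and copy in each wild-type lane and in CCR2-/-, on a log axis with 1 line a copy. Every point lies above the line of equality, and every line is higher at CCR2-/- than at both lanes.

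Several of these pairs differ at few bases, so that a read within the aligned part that covers no difference matches both transcripts. The aligned 341 bases of the Rps27 and Rps27rt transcripts had 0 substitutions. Rps28 and Gm10263 differ at a single base of the coding part, shown in capitals in bases 148 to 177, counted from the first base of the coding part of Rps28. Written from Rps28 to Gm10263 the substitution is G163A.
Rps28: gttcgagagggtgacGtgctcaccctattg
Gm10263: gttcgagagggtgacAtgctcaccctattg
How reads that fit several of these genes were assigned is not given in the sources used here, and its part in the difference between the libraries was not tested. Ratios of the 25 members with a listed copy are therefore uncertain by the part that may belong to the copy.

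Adding the UMIs of each near copy to its member, a choice made after the values were seen, left the shift of the class in place but removed it for some genes. Over the 81 sums the median log2 ratio was -0.76, and 64 were at or below -0.5. The summed share was 21.2% in wild type and 14.0% in CCR2-/-, a log2 ratio of -0.60. Rps27 with its copy came to 0.02 in place of -0.51, Rpl35 with its copies to 0.09 in place of -0.51, Rps18 to -0.27 in place of -0.75 and Rps28 to 0.60 in place of 0.22. The copies themselves took 1.45% of wild-type and 2.02% of CCR2-/- UMIs.

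The 9 rule members that encode other proteins had a median log2 ratio of 0.05, with 0 at or below -0.5 and 2 at or above 0.5, beside 14.2% and 32.1% of all genes. With so few genes these counts are near that background. At or above 0.5 there were 0 against lane 1 alone and 4 against lane 2 alone. Those 2 were Rps6ka3, an S6 kinase of the RSK family, at 32.0 CPM in lane 1, 27.3 in lane 2 and 45.0 in CCR2-/- (0.55), and Rps6ka2, at 2.95, 2.46 and 4.13 (0.56). Rps6kb1, the S6 kinase downstream of mTOR, was at 33.9, 26.5 and 32.8 CPM (0.05). Rps19bp1 was at 25.9, 29.97 and 19.5 (-0.47), and Rps6ka1, Rps6kb2, Rps6ka4, Rps6ka5 and Rps6kc1 had ratios from -0.15 to 0.41.

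The 3 ribosomal protein genes outside the symbol rule that are given here were all lower by more than 0.5. Rpsa was at 1340 and 1442 CPM in the lanes and 857 in CCR2-/- (-0.68). Fau, which encodes a ribosomal protein fused to a ubiquitin-like part, was at 4198, 4263 and 2333 (-0.85), and Gnb2l1 (Rack1), a scaffold on the small subunit, at 980, 969 and 541 (-0.85).

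Other lists of translation genes were mixed, and 14.2% of all genes at or below -0.5 is again the background. Of 16 elongation factors and other genes known for a TOP start 13 were at or below -0.5, with a median of -0.78. Eef1a1, which brings transfer RNA to the ribosome, was at 3768, 4202 and 2023 CPM (-0.95) and Naca, a chaperone at the exit tunnel, at 648, 709 and 290 (-1.20), whereas Pabpc1, the poly(A)-binding protein, was at 540, 525 and 721 (0.43) and Eef2 at 554, 644 and 531 (-0.13). Of 76 proteins of the mitochondrial ribosome 48 were at or below -0.5 (median -0.63), of 30 genes of ribosome assembly 13 (median -0.45, with 4 of the 30 higher in CCR2-/-), and of 24 initiation factors 10 (median -0.36). The other 14 initiation factors did not reach -0.5 and 8 of the 24 were higher in CCR2-/-, among them Eif5b (0.41), Eif2s3x (0.38) and Eif4g2 (0.37), with 0 at or above 0.5. Of 16 regulators 7 were at or above 0.5, against the 32.1% of all genes, and 1 was at or below -0.5. The 7 included Larp1 (0.55), Tsc1 (0.83) and Pdcd4 (1.09), and the lower one was Eif4ebp1 (-0.73).

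Other measures moved with the ribosomal protein share. The 15 immediate-early genes, which respond to handling and tissue digestion, took 0.793% of UMIs in lane 1, 0.774% in lane 2 and 2.89% in CCR2-/-, and all 15 were at or above 0.5. Mitochondrially encoded genes took 3.18%, 2.84% and 4.13%, and 9 heat shock genes 0.532%, 0.497% and 0.267%. The 4 red cell markers took 0.108%, 0.000344% and 0.743%, all 4 detected in both libraries. The 5 fibroblast markers took 0.00261% in wild type and 0.0232% in CCR2-/-, and the 4 endothelial markers 0.00522% and 0.0166%. The 7 monocyte markers took 0.0579% (11974 UMIs) and 0.0147% (1069 UMIs), all detected in both libraries, but Ccr2 itself made up 6844 and 50 of these UMIs. Of the 4 monocyte markers with the minimum, 2 were lower and 2 higher in CCR2-/-, from -5.59 for Ccr2 to 1.95. Their part in the ribosomal protein difference was not tested. Without the 324 wild-type and 652 CCR2-/- cells that held UMIs of 2 or more markers of another cell type the log2 ratio of the summed share was -0.73. Within 2000 to 4000 UMIs, cells were split into 4 equal groups by their immediate-early share, and the lowest group had 19.9% ribosomal protein UMIs in wild type and 12.8% in CCR2-/-, and the highest group 17.9% and 10.8%. The groups between were at 18.9% and 18.5% in wild type and at 11.9% and 12.4% in CCR2-/-. In lane 2 alone the groups did not fall steadily, at 19.5%, 20.6%, 18.4% and 19.3%. Each CCR2-/- group was below each wild-type group, and the part of the immediate-early share in this was not tested.

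The ribosomal protein share followed the depth of the cell in CCR2-/- more than in wild type. In CCR2-/- it was 10.6% in cells of 1000 to 2000 UMIs, 12.02% at 2000 to 4000, 13.9% at 4000 to 8000 and 14.8% in the 17 cells at 8000 to 16000. In wild type it was 18.4%, 18.8%, 18.6% and 20.8% in the same bins, with 147 to 1131 cells a bin. The log2 ratio of CCR2-/- to wild type was therefore -0.79, -0.65 and -0.43 in the first 3 bins. From 1000 to 2000 up to 4000 to 8000 UMIs the share differed by 0.38 on the log2 scale in CCR2-/- and by 0.02 in wild type. Wild-type cells without a Ccr2 UMI stayed level at 16.9%, 17.0%, 16.6% and 17.2%, and against these the log2 ratio of CCR2-/- was -0.67, -0.50 and -0.26 in the first 3 bins.

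**Figure D3:**
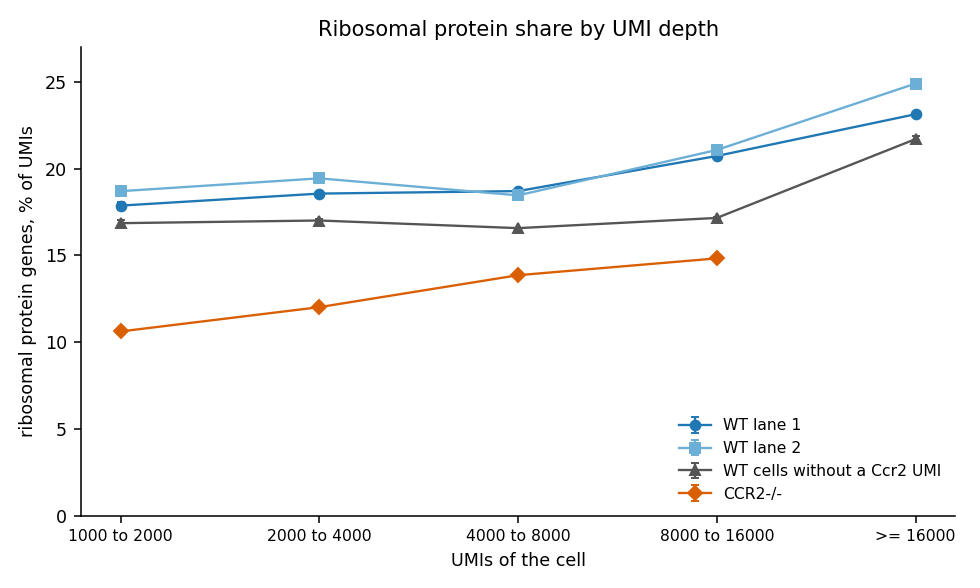
Share of UMIs in ribosomal protein genes by UMI depth of the cells, for the wild-type lanes, wild-type cells without a Ccr2 UMI and CCR2-/-. Points are summed shares with 95% Clopper-Pearson intervals, mostly smaller than the points, and cells under 1000 UMIs and bins with fewer than 10 cells are left out. The CCR2-/- line climbs from 10.6% to 14.8% and stays below the wild-type lines, which are nearly level up to 8000 UMIs.

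The members did not move together along depth. Between wild-type cells of 2000 to 4000 and of 8000 to 16000 UMIs, 28 of 82 members had a log2 ratio of deep to shallow cells at or above 0.5, against 8.23% of 7458 genes, and 3 were at or below -0.5, against 30%. The range ran from -0.76 for Rpl37a to 1.63 for Rplp0, with an SD of 0.44. These ratios are over all wild-type cells, and 3 or more Ccr2 UMIs were found in 396 of 935 deep and 101 of 713 shallow cells. In CCR2-/- cells of 1000 to 2000 against 4000 to 8000 UMIs, 44 members were at or above 0.5, against 8.43% of 6182 genes, and 0 were at or below -0.5, against 26.7%. There the median was 0.54 and the range ran from -0.35 for Rps21 to 1.38 for Rpl6l.

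Rplp0 went from 826 CPM at 2000 to 4000 UMIs to 1486 at 4000 to 8000 and 2503 at 8000 to 16000 in lane 1, and from 983 to 1600 and 3096 in lane 2. In CCR2-/- it went from 637 at 1000 to 2000 to 751 and 1220 in the next bins. Rpl37a went the other way in wild type, from 9168 to 6504 and 5640 CPM in lane 1 and from 9883 to 6352 and 5294 in lane 2. In CCR2-/- it was nearly level at 5242, 5073 and 4756 from 1000 to 8000 UMIs. In each bin Rpl37a was thus lower in CCR2-/- than in both lanes, by a margin that narrowed with depth.

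The order of the members along depth followed the length of their coding part. In 4 groups of near equal size, the members with the shortest coding part (138 to 357 bases) had a median deep-to-shallow log2 ratio of -0.14 in wild type, and the following groups 0.21, 0.52 and 0.60. Of the 21 shortest 14 were below 0, and of the 20 longest (633 to 1257 bases) 0 were. In CCR2-/- the medians of the 4 groups were 0.27, 0.52, 0.64 and 0.62. Across 81 members with a coding part the rank correlation of coding length with the depth ratio was 0.74 in wild type and 0.39 in CCR2-/-. The depth ratios of the 2 lanes correlated at 0.97 in rank, and those of wild type and CCR2-/- at 0.75. Genes are not independent replicates, and these correlations describe points that share library and depth. Coding length bore little relation to the ratio of CCR2-/- to wild type itself, where the groups of 20 genes had medians of -0.67, -0.996, -0.78 and -0.82.

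**Figure D4:**
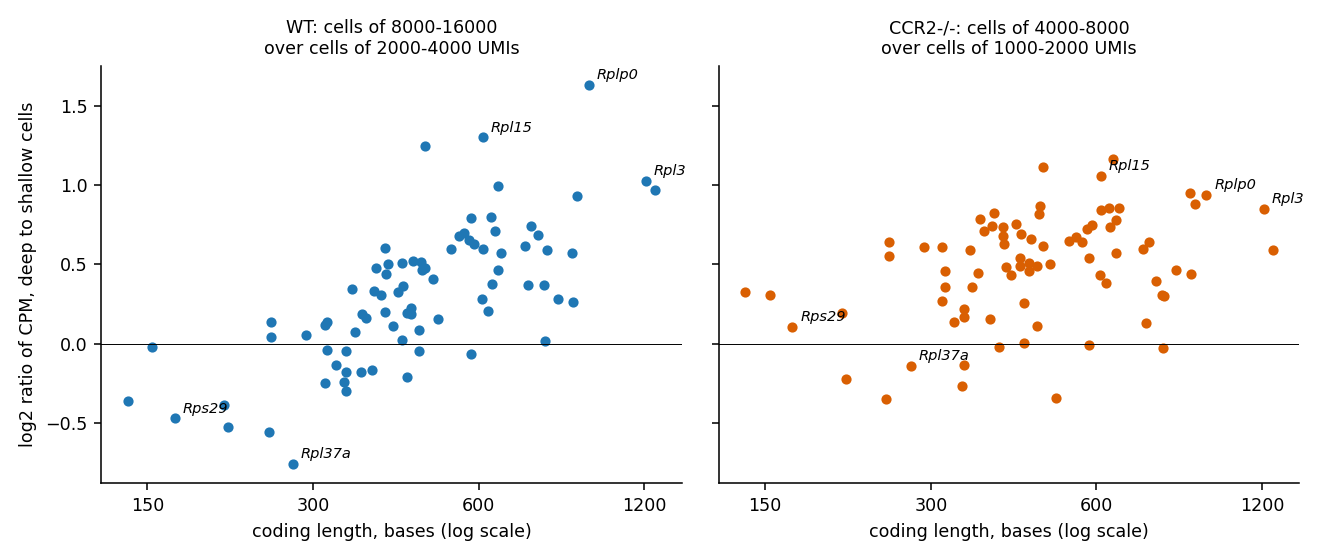
Log2 ratio of CPM in deep to shallow cells against coding length (log axis) for 81 ribosomal protein genes, in wild type on the left and CCR2-/- on the right, each point a gene. Short genes such as Rpl37a and Rps29 lie low and long genes such as Rplp0 and Rpl3 lie high in wild type, and the slope is flatter in CCR2-/-.

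Within wild type, cells with more Ccr2 UMIs had a larger ribosomal protein share. It was 17.0% in the 1692 cells without a Ccr2 UMI, 19.3% in 322 cells with 1, 22.4% in 168 cells with 2 and 24.1% in 834 cells with 3 or more. The log2 ratio of the highest class to the lowest was 0.50 over all wild-type cells, 0.50 in lane 1 and 0.52 in lane 2. A deeper cell reaches a higher class more readily, so the classes were also compared within bins, where the ratio was 0.47, 0.50, 0.51 and 0.51 from 1000 to 16000 UMIs. Above 16000 UMIs it was 0.13, with 14 cells in the lowest class. Thinning each cell to 1000 UMIs before counting gave 18.3%, 22.9%, 25.3% and 24.5% (1 shallower wild-type cell was left out). After thinning 20.9% of wild-type cells had a Ccr2 UMI, against 2 of 32 cells with B or plasma cell markers (6.25%, 0.766% to 20.8%) and 0.414% of CCR2-/- cells, with median depths before thinning of 6131, 8627 and 2597 UMIs.

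**Figure D5:**
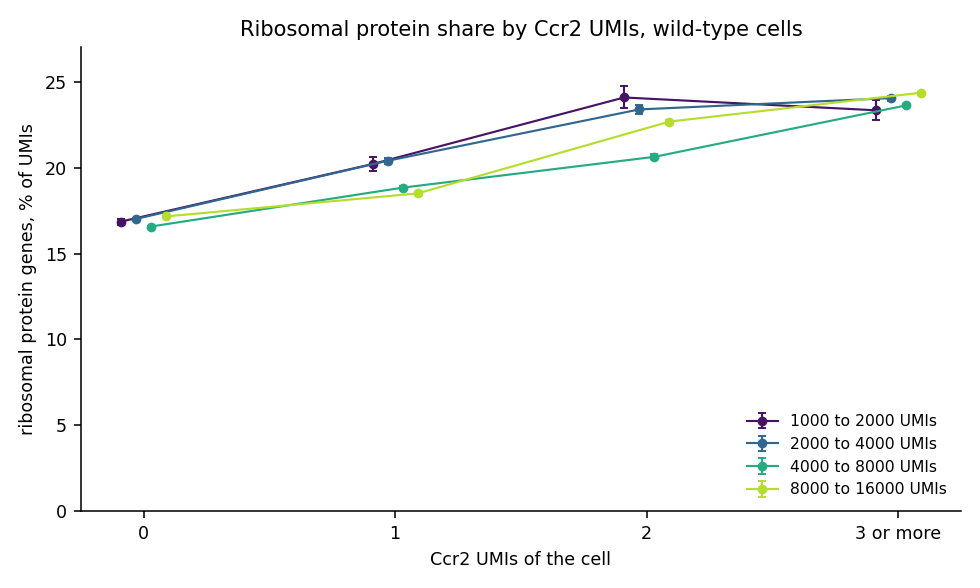
Share of UMIs in ribosomal protein genes by the number of Ccr2 UMIs of the cell, for wild-type cells in 4 bins of UMI depth. Points are summed shares with 95% Clopper-Pearson intervals and are offset sideways for view. In each bin the share is 16.6% to 17.2% in cells without a Ccr2 UMI and 23.3% to 24.4% in cells with 3 or more. At 1000 to 2000 UMIs the class with 2 (10 cells) is above the class with 3 or more (11 cells).

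The members moved almost as a block between these classes. Among wild-type cells of 4000 to 8000 UMIs, 80 of 82 members were higher in cells with 3 or more Ccr2 UMIs than in cells with 0, and 44 had a log2 ratio at or above 0.5, against 9.66% of 6389 genes. At or below -0.5 there were 0 members, against 9.94%. The median was 0.51 and the SD 0.14. Between CCR2-/- and wild type the members had an SD of 0.39, or 0.29 without the paralogues with their own symbol. Those 2 values are over cells of all depths, so they do not compare like for like with the SD of 0.14. Rpl37a was at 5215 CPM in the lowest and 8881 in the highest class (0.77), Rps19 at 2454 and 4108 (0.74) and Rpl22 at 990 and 1606 (0.70). Rplp0 was at 1324 and 2049 (0.63) and Rps29 at 9028 and 11518 (0.35). The 2 members that were not higher were Rpl7l1, at 50.2 and 47.7 (-0.08), and Rpl22l1, at 483 and 463 (-0.06). Rpl7l1 was higher in lane 2 alone (0.26), with 76 UMIs over both lanes in the highest class.

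Near copies went with their members in this comparison, unlike between the libraries. All 31 copies with the minimum were higher in the highest class, with a median of 0.43, and Rps27rt was at 791 and 1036 CPM (0.39) beside 3845 and 5481 (0.51) for Rps27. The other 16 genes known for a TOP start were all higher, with a median of 0.47, and initiation factors had a median of 0.16, assembly genes 0.25 and the mitochondrial ribosome 0.01. The rule members that encode other proteins had a median of 0.01 over the 5 with the minimum.

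For single genes, other classes of cells compared any UMI with none, whereas the Ccr2 contrast above compared 3 or more UMIs with 0. The sizes of the differences are therefore not like for like. With 1 Ccr2 UMI the share was 18.8%, and with 0 it was 16.6%, in wild-type cells of 4000 to 8000 UMIs. In cells of 4000 to 8000 UMIs the share was 15.8% with and 19.2% without a UMI of Timd4, a marker of long-lived resident macrophages, in wild type, and 12.7% and 14.8% in CCR2-/-. With and without a UMI of Plac8, a gene of monocytes, it was 21.1% and 17.8% in wild type and 15.6% and 13.5% in CCR2-/-. Cells with UMIs of 2 or more of the cycling genes Mki67, Top2a, Birc5, Cdk1 and Stmn1 were at 19.3% against 18.6% in wild type, and at 12.04% against 13.9% in CCR2-/-, the latter on 21 cycling cells. In these cells the Timd4 and Plac8 differences had the same direction in both libraries, and whether their size differed between libraries was not tested.

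Ccr2 lies on chromosome 9 (GRCm38, 124101950 to 124113557), and 7 members lie on the same chromosome. The nearest, Rpl14, is 3.53 Mb away and was at 1307 and 1435 CPM in the lanes and 748 in CCR2-/- (-0.85), close to the members' median. Rps27rt is 9.12 Mb away (1.36) and Rpl29 17.7 Mb away (-1.16). The other 4, Rps27l, Rpl4, Rplp1 and Rps25, are 57.2 to 79.7 Mb away and had ratios from -0.77 to -0.65. Nearness to Ccr2 thus went with ratios on both sides of the median.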

How the data were processed

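The deposited matrices hold UMI counts per gene and cell, as whole numbers that the authors did not normalise. Per the submitters' processing notes they were made with Cell Ranger 3.0.1 and mm10, and the annotation and the handling of reads that fit several genes are not given in the sources used here. The members, gene lists and comparisons were chosen with earlier results of these data known. Counts were summed over kept cells of a library, scaled to CPM and compared as log2 ratios without a pseudocount, for genes with at least 20 UMIs in each library. A fold of 0.5 on the log2 scale was used for counts of genes. Shares carry Clopper-Pearson and levels Poisson intervals. Doublets were left in and removed as an alternative, with the highest Scrublet scores (scanpy 1.11.5), 0.8% per 1000 cells of a lane. Near copies were found with BLASTN 2.17.0 against GENCODE M21 transcripts (GRCm38), and at least 40% of the copy had to match. The genes named are the 10 highest and 10 lowest ratios, all members 0.5 or more from the median, the 5 most abundant, set stalk and paralogue genes, and the genes outside the rule. Other members named for their start, copy, depth or Ccr2 class values, genes of other lists and near copies were chosen after their values were seen. The computation of shares and ratios was tested on simulated data. Protein sequences were not used here. One gene outside the symbol rule is not reported here. Alternatives covered scaling, minimum, pseudocount, cell filter, depth, lanes, cells compared, doublets and copies.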

Additional observations from a re-analysis of the deposited data

How the results depend on the processing

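No paired analysis was possible because each genotype has 1 library, and the results come from no test. The direction of the summed share and of the median stayed below 0 under all alternatives run. The log2 ratio of the summed share (-0.68) was -0.90 with size factors, -0.81 over total UMIs without the members, -0.65 with at least 500 genes and at most 5% mitochondrial UMIs, -0.71 with all deposited cells, -0.65 in cells of 2000 to 4000 UMIs, -0.71 after thinning to 1000 UMIs, -0.73 as a mean over cells, -0.68 and -0.70 against lane 1 and lane 2, -0.44 against wild-type cells without a Ccr2 UMI, -0.46 in cells of both libraries with UMIs of 2 or more C1q genes and none of Ccr2, -0.60 with near copies added and -0.73 without cells bearing markers of other types. The last 2 settings were chosen after seeing the data. In the same terms the members' median (-0.80) was -1.01 with size factors, -0.93 without the members' UMIs, -0.64 at 2000 to 4000 UMIs, -0.54 without Ccr2 UMIs, -0.57 in C1q cells and -0.86 without cells of other types. The number of members at or below -0.5 ran from 47 to 74 around 70, and the number 0.5 or more from the median was 13 in place of 8 at 2000 to 4000 UMIs. Over all genes the share at or below -0.5 was 14.2% in the main setting and is not given for the alternatives. For the Ccr2 classes (0.50) the values were 0.51 at 4000 to 8000 UMIs, 0.52 in lane 2 and 0.42 after thinning. For depth within wild type, 8000 to 16000 against 2000 to 4000 UMIs (0.15), they were 0.16 in lane 1, 0.12 in lane 2 and 0.013 without Ccr2 UMIs. Rps27 turned from -0.51 to 0.019 with its copy added, a change made by the construction of that sum. Of 731 values of single named genes under alternatives, 462 kept within counting error and 268 moved beyond it. The size of the ratios depended on the depth of the cells compared, and with 1 library a genotype the spread between animals is unknown.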
